A study of Homo sapiens with 6 samples.

Results

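*MYLK* and 9 other genes of the contractile actin cytoskeleton were examined in H2452 cells, an established line of pleural mesothelioma. The genes were taken by symbol from the deposited tables, which list 58735 genes, and all 10 were found: *MYLK*, *MYL9*, *ACTA2*, *TPM1*, *TPM2*, *CALD1*, *CNN1*, *CNN2*, *TAGLN* and *ACTN1*. The series holds 6 RNA-seq libraries, 3 labelled sgCtrl with a wild-type *NF2* genotype and 3 labelled sg*NF2*-1 with an *NF2* knockout genotype. By the study's methods, both groups received Cas9 and a guide from a lentivirus that also carries mCherry, a scrambled guide in sgCtrl and 1 guide to *NF2* in sg*NF2*-1, and mCherry-positive cells were sorted. Both groups grew in RPMI-1640 with fetal bovine serum, and the labels name no further treatment. The sorted cells are a population edited with a single *NF2* guide. The labels do not say whether the 3 libraries of a group came from separate cultures. The p-values therefore judge a difference between groups against the variation among these libraries, which may not be that among cultures.

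Non-muscle cells pull on their surroundings with bundles of actin and myosin. Myosin light chain kinase, the product of *MYLK*, is switched on by calcium-bound calmodulin and phosphorylates the regulatory light chain of myosin, which lets myosin move along actin, and a phosphatase takes the phosphate off. Tropomyosin, caldesmon, calponin and transgelin bind the actin filament, and alpha-actinin crosslinks filaments. Many of these genes are known targets of serum response factor (SRF) and its actin-sensing cofactors, which bind a DNA element called the CArG box, and some are also bound by TEAD factors, the DNA-binding partners of YAP, downstream of merlin, the *NF2* product.

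The sites that match these elements are shown first, because SRF and TEAD factors are well known regulators of this group of genes. The 250 bases before annotated start sites in RefSeq (GRCh38.p14) were searched on both strands for the CArG box and for the TEAD core GGAATG, and no match of one overlapped a match of the other in the windows of these genes. Windows were found for 8 of the 10 genes, 16 windows in all, with none for *TAGLN* and *MYL9* and 1 for *MYLK*, at an internal start. A CArG box was counted only in the strict form CCWWWWWWGG, where W is A or T. This form was present in 3 windows, one each of *MYLK*, *CNN2* and *ACTN1*, and in 407 of all 34943 windows searched (1.16%). Near matches were not counted. For example, an *ACTA2* window holds ccctatatgg and ccttgtttgg, each 1 base off this form. The 30 bases around each match are written 5′ to 3′ on the gene's strand, with the match in capitals.
MYLK: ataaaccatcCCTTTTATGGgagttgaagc
CNN2: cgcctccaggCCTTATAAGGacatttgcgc
ACTN1: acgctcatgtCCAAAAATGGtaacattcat
The *MYLK* site is chr3:123620623-123620652 on the minus strand, the *CNN2* site chr19:1026509-1026538 on the plus strand and the *ACTN1* site chr14:68977718-68977747 on the minus strand. The *MYLK* match began 94 bases before an internal start site of the gene, 263783 bases downstream of its 5′ end, from which the short form known as telokin is transcribed. GENCODE places exons of 3 transcripts over it, counted without regard to gene or strand, and for 2 of them the site is UTR. The *CNN2* match began 89 bases and the *ACTN1* match 171 bases before the start, and neither site lay in an annotated exon.

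The TEAD core was present in 4 windows of 3 genes, *ACTA2*, *ACTN1* and *CALD1*, and in 4156 of the 34943 windows (11.9%). The sites follow in the same form.
ACTA2: gagcagaccagtGGAATGcagtggaagaga
ACTN1: aatggtaacattCATTCCcttttttaaact
CALD1, upstream start: cagttaagtctgCATTCCgctactggattt
CALD1, downstream start: gagcatgcctagGGAATGacaggcatctcc
They lie at chr10:88952939-88952968 (minus strand), chr14:68977703-68977732 (minus strand), chr7:134745413-134745442 (plus strand) and chr7:134779428-134779457 (plus strand). *CALD1* had 4 windows, and upstream and downstream refer only to the 2 with a match. The other *CALD1* starts lie further upstream and further downstream. The last site listed, at the downstream start of these 2, lies in an exon of 1 GENCODE transcript, in its UTR. The other TEAD sites lie in no annotated exon. Each match describes the letters of a window and does not show that a factor is bound there.

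The libraries held 14782423 to 17416463 counts, and the 10 genes took 0.124% to 0.129% of them in every library. *NF2* itself had 1162, 1197 and 1025 counts in sgCtrl and 692, 802 and 590 in sg*NF2*-1, a log2 fold change of -0.69 (SE 0.10, edgeR adjusted p = 7.9e-06). Of 8 defining smooth muscle markers, *ACTG2* and *MYOCD* were at 0 in all 6 libraries, *DES* had at most 2 counts, and *MYH11*, *LMOD1*, *SYNPO2* and *CNN1* had at most 14. *SMTN*, the smoothelin gene, was the exception with 173 to 217 counts and made up most of the summed level of the 8, which was 12.8 to 13.1 CPM in sgCtrl and 12.96 to 17.1 CPM in sg*NF2*-1. A count of 0 allows a level of up to 0.170 to 0.210 CPM, taking 3 counts as the floor (counting error only). Of 8 tested mesothelial markers, 2 were called higher and 3 lower in sg*NF2*-1, with summed CPM of 3264 to 3680 in sgCtrl and 2862 to 3514 in sg*NF2*-1; their part in the results on the contractile genes was not tested.

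The comparison asks which contractile genes differ when *NF2* is targeted. *MYLK* rose about 2.6-fold in sg*NF2*-1, whereas the actin-binding genes *TPM1* and *TAGLN* fell to 78.0% and 68.2% of their sgCtrl levels. The other 6 tested genes, *MYL9*, *ACTN1*, *CNN2*, *ACTA2*, *CALD1* and *TPM2*, did not pass the test, and *CNN1* had too few counts to be tested. Levels are given as CPM, read counts scaled to library depth with the trimmed mean of M-values (TMM). Calls rest on the quasi-likelihood test of edgeR over 14179 genes, at a false discovery rate (Benjamini-Hochberg adjusted p) under 0.05. By that rule 1 of the 9 tested contractile genes was called higher, against 17.7% of all tested genes, and 2 were called lower, against 16.6%. Calls in either direction came to 3 of 9, against 34.3%. Their median log2 fold change was 0.01, beside -0.0025 over all tested genes, and 5 of the 9 lay above 0. Adding the study's limit of a log2 fold change beyond 0.5 left *MYLK* and *TAGLN*, 2 of 9, against 17.7% of all tested genes. With that limit and an unadjusted p under 0.05 the same 2 were called, against 20.0%. In these bulk libraries, fewer cells that express a gene and less RNA per cell cannot be told apart.

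**Figure D1:**
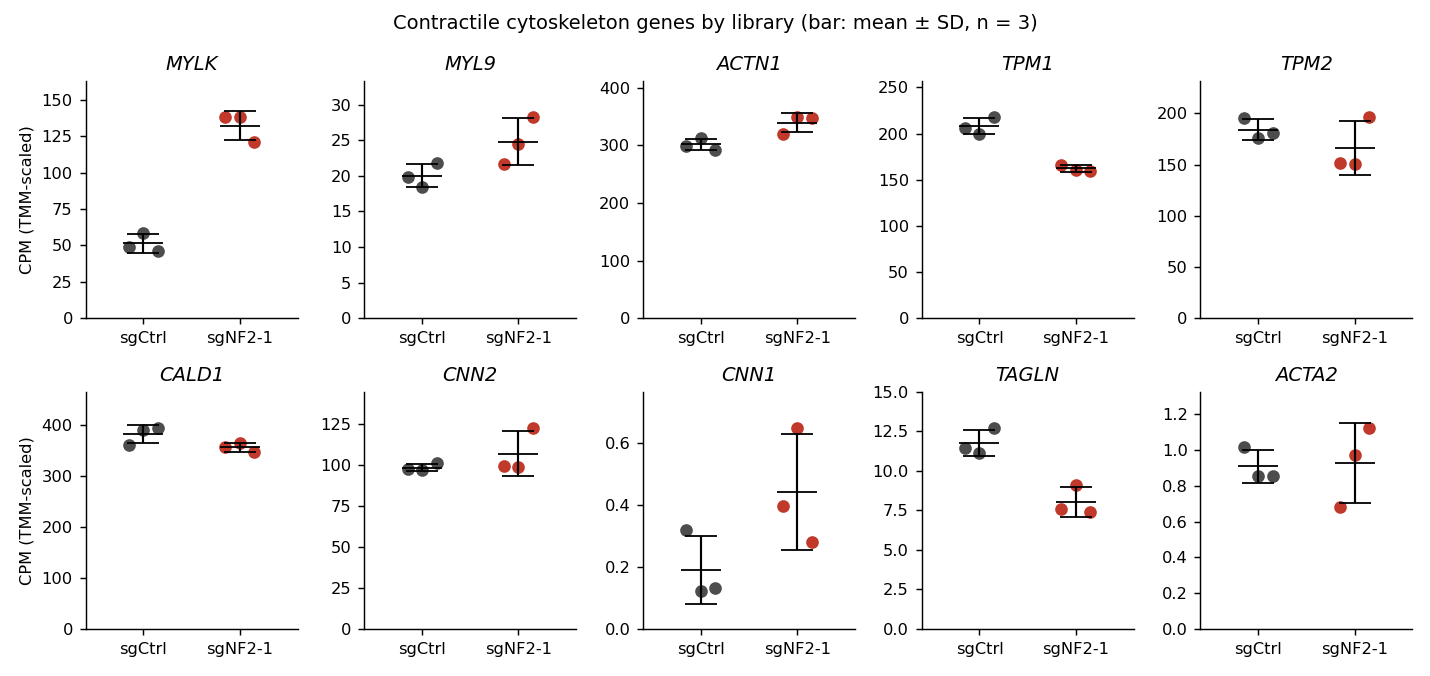
TMM-scaled CPM of each contractile gene in the 3 sgCtrl (grey) and 3 sg*NF2*-1 (red) libraries, with the mean and SD (n = 3) as bars and each axis starting at 0. *MYLK* lay at 46.5 to 58.7 CPM in sgCtrl and at 121.2 to 138.2 CPM in sg*NF2*-1, and *TPM1* and *TAGLN* were lower in every sg*NF2*-1 library.

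The kinase and the light chain come first. *MYLK* (ENSG00000065534, chr3:123610049-123884331, minus strand, 21 annotated transcripts) had 774, 964 and 706 counts in sgCtrl and 2429, 2133 and 1726 in sg*NF2*-1. Scaled to depth, these were 49.1, 58.7 and 46.5 CPM against 138.0, 138.2 and 121.2 CPM. Every sg*NF2*-1 library was more than double the highest sgCtrl library. The mean went up from 51.5 ± 6.43 CPM to 132.5 ± 9.77 CPM (SD, n = 3), or by 1.36 on the log2 scale (SE 0.10, 95% interval 1.17 to 1.56, edgeR adjusted p = 5.5e-11). That placed *MYLK* 142nd of 14179 genes when ranked from the largest increase. Alone, 3 libraries against 3 allow an exact two-sided permutation p no smaller than 0.10, which *MYLK* reached. Reads were summed over the whole gene, so the long kinase forms and telokin, the short form that lacks the kinase domain, are not separated in this value. *MYLK-AS1*, antisense to *MYLK*, had at most 12 counts in any library, and the pseudogene *MYLKP1*, which shares 11 of 22741 stretches of 100 bases with *MYLK* transcripts, had 0.

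*MYL9* (ENSG00000101335, chr20:36541484-36551447), which encodes a regulatory light chain that the kinase phosphorylates, stood at 19.9, 18.5 and 21.75 CPM in sgCtrl and 21.71, 24.4 and 28.2 CPM in sg*NF2*-1. The lowest sg*NF2*-1 library was just below the highest sgCtrl library, so the groups overlapped. The means were 20.02 ± 1.65 and 24.8 ± 3.28 CPM, with a log2 fold change of 0.31 (SE 0.12, 95% interval 0.06 to 0.56) whose edgeR adjusted p was 0.054. Leaving out sgCtrl replicate 3 (adjusted p = 0.033) or sg*NF2*-1 replicate 1 (adjusted p = 0.030) brought it past the threshold, and over all alternatives the adjusted p ran from 0.030 to 0.22.

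*ACTA2* (ENSG00000107796, chr10:88935074-88991339), the smooth muscle alpha-actin and a common marker of myofibroblasts, was almost absent. It had 16, 14 and 13 counts in sgCtrl and 12, 15 and 16 in sg*NF2*-1. The groups overlapped completely, at 0.908 ± 0.0926 and 0.926 ± 0.224 CPM. At this depth the 95% interval of the log2 fold change ran from -0.85 to 0.88 (0.556-fold to 1.83-fold), so a change inside that range is not excluded. *FAS* and *STAMBPL1* overlap *ACTA2* on the opposite strand with 90 to 161 and 47 to 79 counts, and since the strand setting of the counting is not given, reads of these genes cannot be told apart where they overlap.

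Among the genes for proteins that lie along the actin filament, both tropomyosins were abundant but only *TPM1* was called. *TPM1* (ENSG00000140416, chr15:63042632-63071915) stood at 206.2, 199.9 and 217.7 CPM in sgCtrl and 165.9, 160.9 and 159.5 CPM in sg*NF2*-1. The groups were clearly apart, with little spread inside sg*NF2*-1. The group means were 207.9 ± 8.98 and 162.1 ± 3.33 CPM, with a log2 fold change of -0.36 (SE 0.08, 95% interval -0.52 to -0.20, edgeR adjusted p = 0.00087). Its 34 annotated transcripts include muscle and non-muscle tropomyosins, which gene counts do not separate.

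*TPM2* (ENSG00000198467, chr9:35681992-35690121), the beta-tropomyosin gene, stood at 195.6, 176.1 and 180.7 CPM in sgCtrl and 151.7, 150.4 and 196.2 CPM in sg*NF2*-1. Replicates 1 and 2 of sg*NF2*-1 lay below all sgCtrl libraries, while replicate 3 lay just above them. The log2 fold change was -0.15 (SE 0.09, 95% interval -0.34 to 0.04) and was not called (edgeR adjusted p = 0.23). Without sg*NF2*-1 replicate 3 it was -0.28 and was called lower, with an edgeR adjusted p of 0.011. The difference in response between *TPM1* and *TPM2* was not tested.

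*TAGLN* (ENSG00000149591, chr11:117199321-117204782) encodes transgelin or SM22, an actin-binding protein long used as an early smooth muscle marker. It had 180, 183 and 193 counts in sgCtrl and 133, 141 and 105 in sg*NF2*-1. After scaling, the highest sg*NF2*-1 library stayed below the lowest sgCtrl one, with means of 11.8 ± 0.839 and 8.02 ± 0.968 CPM. The log2 fold change was -0.55 (SE 0.15, 95% interval -0.86 to -0.24, edgeR adjusted p = 0.0060). *PCSK7*, a protease gene, overlaps *TAGLN* on the opposite strand with 132 to 237 counts and went from 12.4 ± 1.83 to 9.55 ± 1.76 CPM, which was not called (log2 fold change -0.38, edgeR adjusted p = 0.065). Its part in the *TAGLN* value was not tested.

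*CALD1* (ENSG00000122786, chr7:134744252-134970728) encodes caldesmon, a calmodulin-regulated inhibitor of the actin-activated myosin ATPase. It stood at 360.5, 389.9 and 393.4 CPM in sgCtrl and 355.5, 363.3 and 346.6 CPM in sg*NF2*-1. The groups overlapped narrowly, and the log2 fold change of -0.10 (SE 0.08, 95% interval -0.27 to 0.06) was not called (edgeR adjusted p = 0.34).

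*CNN1* and *CNN2* encode calponins, of which *CNN1* is the smooth muscle form and *CNN2* is widely expressed. *CNN1* (ENSG00000130176, chr19:11538717-11550323) had 5, 2 and 2 counts in sgCtrl and 7, 10 and 4 in sg*NF2*-1. These counts fell below the filter on low counts, and in CPM the groups overlapped (two-sided exact permutation p = 0.20). *CNN2* (ENSG00000064666, chr19:1026581-1039068) stood at 97.2, 96.9 and 100.9 CPM in sgCtrl and 99.2, 98.7 and 122.5 CPM in sg*NF2*-1. Only sg*NF2*-1 replicate 3 was clearly above sgCtrl. The log2 fold change was 0.12 (SE 0.09, 95% interval -0.07 to 0.30, edgeR adjusted p = 0.33).

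*ACTN1* (ENSG00000072110, chr14:68874143-68979440) encodes alpha-actinin 1, which crosslinks actin in stress fibres and at adhesions. It stood at 299.0, 312.7 and 292.6 CPM in sgCtrl and 320.2, 348.6 and 347.9 CPM in sg*NF2*-1. The groups did not overlap, yet the gain was small, from 301.4 ± 10.3 to 338.9 ± 16.2 CPM. Its log2 fold change of 0.17 (SE 0.08, 95% interval 0.01 to 0.33) was not called (edgeR adjusted p = 0.10). Counted over the 9 tested genes, 4 had groups that did not overlap in CPM (*MYLK*, *TAGLN*, *TPM1* and *ACTN1*), against 45.3% of all tested genes.

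**Figure D2:**
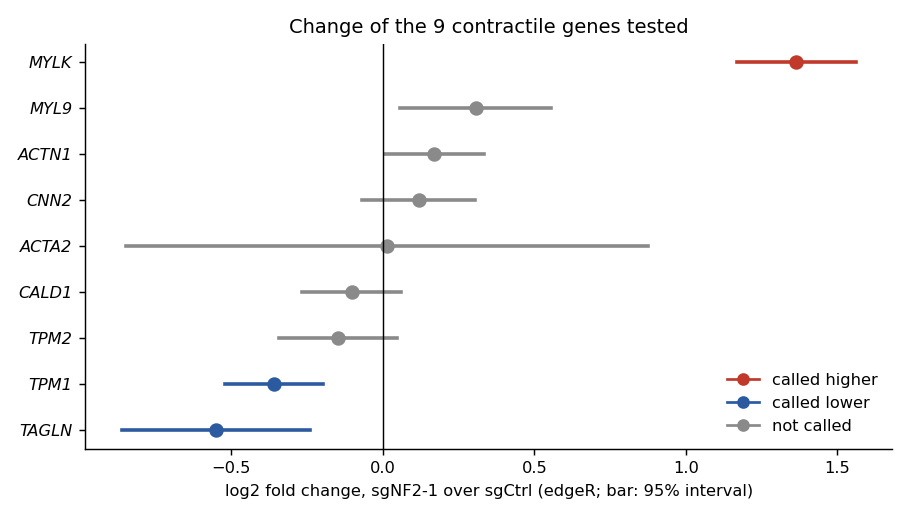
Log2 fold change of sg*NF2*-1 over sgCtrl for the 9 tested contractile genes, with 95% intervals from edgeR (n = 3 per group). Red marks the gene called higher, blue the genes called lower and grey those not called. *MYLK*, at 1.36, lies above the others, which lie between -0.55 and 0.31.

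The levels of different genes were compared per kilobase, in the deposited FPKM, which divide each count by a length that pools all transcripts of the gene. These lengths ran from 2821 bases for *MYL9* to 22167 for *MYLK*, so the order depends on them as well as on the counts. In sgCtrl, *TPM1* (length 12876) had a higher mean CPM than *TPM2* (length 3248), 207.9 against 184.1, but a lower FPKM. Averaged over the 6 libraries, *TPM2* was highest at 50.9 FPKM, then *CALD1* at 35.3, *ACTN1* at 28.4, *CNN2* at 26.5, *TPM1* at 13.6, *MYL9* at 7.49, *MYLK* at 3.91, *TAGLN* at 2.39, *ACTA2* at 0.291 and *CNN1* at 0.103 FPKM. *ACTN1* and *CNN2* overlapped in both groups and are not ordered in FPKM by these libraries. *MYLK* and *TAGLN* changed places between the groups. In sgCtrl *TAGLN* was the higher in every library, at 2.85 ± 0.199 against 2.20 ± 0.279 FPKM for *MYLK*, and in sg*NF2*-1 *MYLK* was, at 5.61 ± 0.423 against 1.92 ± 0.237 FPKM for *TAGLN*. No neighbours in the order other than *ACTN1* and *CNN2* overlapped within a group. The muscle-type genes *ACTA2* and *CNN1* were thus listed at the bottom. In FPKM the kinase gene stayed among the lower-level genes even after its rise. In CPM its sg*NF2*-1 mean, 132.5, was above that of *CNN2*, at 106.8.

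Tested on log2(FPKM + 1) with limma, with a mean of at least 0.5 FPKM required, *MYLK* was again called higher (difference 1.05, SE 0.09, adjusted p = 0.00024). *TPM1* (difference -0.35, limma adjusted p = 0.0048) and *TAGLN* (difference -0.40, limma adjusted p = 0.015) were called lower. That made 3 of the 8 contractile genes that passed the filter, against 28.4% of all 13038 genes tested this way. The *TAGLN* call was lost without sg*NF2*-1 replicate 1 (adjusted p = 0.053), and *TPM2* was called lower without sg*NF2*-1 replicate 3 (adjusted p = 0.026). These differences are smaller than log2 fold changes for low genes because of the added 1.

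**Figure D3:**
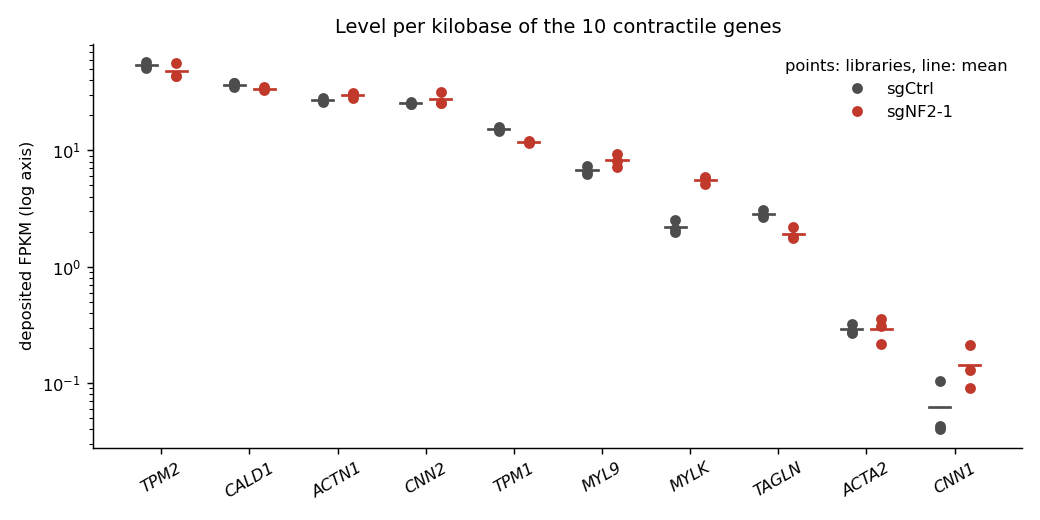
Deposited FPKM of the 10 contractile genes on a log axis, one point per library, grey for sgCtrl and red for sg*NF2*-1. *TPM2* sits at the top with a mean of 50.9 FPKM and *CNN1* at the bottom with 0.103 FPKM, and *MYLK* passes *TAGLN* in sg*NF2*-1.

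Most contractile proteins belong to families of related forms, so each gene was also expressed as its share of the summed FPKM of its family. The size of a share depends on the same pooled lengths. With 19 shares compared and 3 libraries a group, the smallest exact two-sided permutation p of 0.10 becomes 0.21 after adjustment, so no share could pass the threshold, and the values are descriptive. The calponin family shifted most in percentage points. *CNN2* made up 29.4%, 28.5% and 29.7% of calponin FPKM in sgCtrl and 36.3%, 35.7% and 42.3% in sg*NF2*-1, with no overlap, while *CNN3*, the acidic calponin, went from 70.7% ± 0.627 to 61.7% ± 3.55. *CNN3* itself was called lower, with a log2 fold change of -0.46 (edgeR adjusted p = 4.9e-05), whereas *CNN2* was not called.

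Within the tropomyosins, *TPM1* went from 7.17% ± 0.106 to 5.87% ± 0.330, without overlap. *TPM4*, a cytoskeletal form, went from 41.4% ± 0.950 to 44.1% ± 1.68. Its groups were barely apart, with a highest sgCtrl share of 42.16% and a lowest sg*NF2*-1 share of 42.18%. *TPM2* held 25.2% ± 1.36 and 23.7% ± 2.65, and *TPM3* 26.3% in both groups. Neither *TPM3* nor *TPM4* was called by edgeR, with log2 fold changes of -0.07 and 0.02 (adjusted p = 0.57 and 0.87).

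*ACTN1* gave way slightly to *ACTN4*, the other non-muscle alpha-actinin, from 27.5% ± 0.605 to 25.2% ± 0.697 of the pair, although its own level was not lower. *ACTN4* was called higher, with a log2 fold change of 0.34 (edgeR adjusted p = 0.0021). *MYL9* was a small part of the regulatory light chains, at 1.92% ± 0.187 and 2.37% ± 0.224, beside *MYL12A* at 31.0% and 30.5% and *MYL12B* at 67.0% and 67.1%. Neither *MYL12A* nor *MYL12B* was called, at -0.03 and -0.00. *TAGLN* was under 1% of the transgelins in all libraries (0.899% and 0.798% on average), and *TAGLN2*, which made up nearly all of the rest, was called lower as well (-0.37, edgeR adjusted p = 0.0023).

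*ACTA2* was 0.0129% of actin FPKM in sgCtrl and 0.0118% in sg*NF2*-1, and *ACTC1*, the cardiac form, was lower still. The cytoplasmic actins carried the family. *ACTB* went from 61.7% ± 1.66 to 55.1% ± 0.198 and *ACTG1* from 38.3% ± 1.66 to 44.9% ± 0.200, with no overlap. *ACTG1* was called higher with a log2 fold change of 0.37 (edgeR adjusted p = 0.0027) and *ACTB* was not called, at -0.02 (adjusted p = 0.88).

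**Figure D4:**
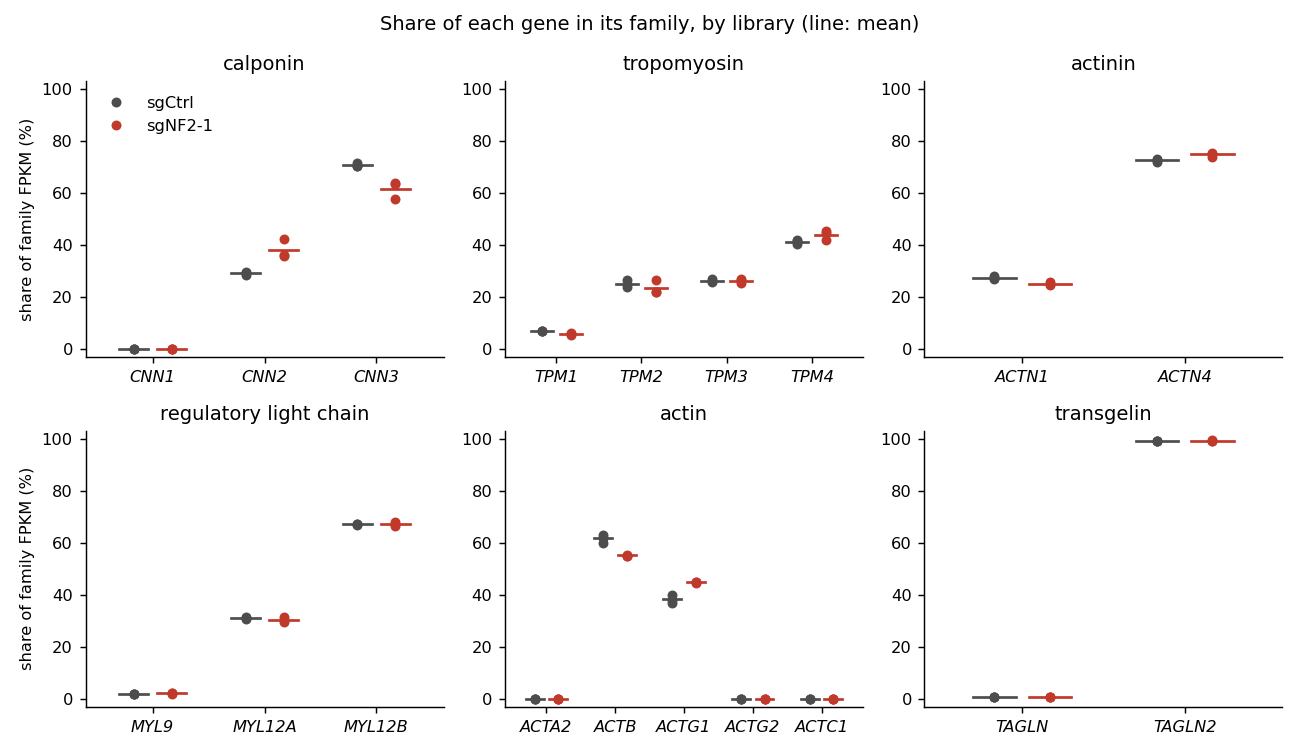
Share of each gene in the summed FPKM of its family, in percent, by library for sgCtrl and sg*NF2*-1. *CNN2* rises from 29.2% to 38.1% of calponin FPKM on average, and the share of *MYL9*, *TAGLN* and *ACTA2* stays small in all libraries.

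The wider pathway was followed in 4 lists of 67 genes, none of them among the 10, of which 57 were tested. Over these lists 17 genes were called higher and 10 lower, 29.8% and 17.5% of those tested, against 17.7% and 16.6% of all tested genes, with a median log2 fold change of 0.01. Among the other filament genes (19 genes, 14 tested), 2 were called higher and 3 lower, or 14.3% and 21.4%, near those shares. *MYH9*, the heavy chain of non-muscle myosin IIA, rose from 1270 ± 123.5 to 1657 ± 66.1 CPM (log2 fold change 0.38, edgeR adjusted p = 0.0016). *MYL6*, the essential light chain, fell from 418.4 ± 28.8 to 277.1 ± 44.0 CPM (log2 fold change -0.59, edgeR adjusted p = 3.5e-05). *ACTG2*, the enteric smooth muscle actin, was at 0.

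Of the genes that control the phosphorylation of myosin (21 genes, 18 tested), 3 were called higher and 4 lower, or 16.7% and 22.2%, near the 17.7% and 16.6% of all tested genes. *RHOB*, a small GTPase that acts on the actin cytoskeleton, rose from 51.5 ± 0.430 to 87.2 ± 7.96 CPM (log2 fold change 0.76, edgeR adjusted p = 3.3e-07). *MYLK2*, the kinase of skeletal muscle, was at a low 5.36 ± 0.947 CPM and fell to 3.08 ± 0.450 CPM (log2 fold change -0.81, edgeR adjusted p = 0.0069). Of the phosphatase inhibitor genes, *PPP1R14A* and *PPP1R14C* were at 0 in all libraries, while *PPP1R14B* stood at 256.6 ± 6.64 and 264.7 ± 39.0 CPM and was not called (log2 fold change 0.04, edgeR adjusted p = 0.75).

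The genes of actin crosslinkers and cell adhesion had the largest share of higher calls of the 4 lists, 11 of 22 tested (beside 17.7% of all tested genes), with 3 called lower and a median log2 fold change of 0.17. *TLN2*, a talin that links integrins to actin, rose from 19.6 ± 1.42 to 50.6 ± 1.03 CPM (log2 fold change 1.37, edgeR adjusted p = 2.1e-10), a size close to that of *MYLK*. *TGFB1I1*, which encodes the focal adhesion protein Hic-5, rose from 20.8 ± 2.45 to 38.4 ± 3.95 CPM (log2 fold change 0.88, edgeR adjusted p = 1.7e-06). The list was chosen with results of these data known, so its count describes these genes only.

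*SRF* itself rose from 59.1 ± 6.73 to 81.5 ± 2.74 CPM (log2 fold change 0.46, SE 0.09, edgeR adjusted p = 0.00037). Its cofactor genes *MRTFA* (-0.14, edgeR adjusted p = 0.27) and *MRTFB* (-0.02, edgeR adjusted p = 0.95) were not called, and *MYOCD*, the cofactor of heart and smooth muscle, was at 0. Of the 3 contractile genes with a CArG box of the strict form in a window searched, *MYLK* was called higher and *CNN2* and *ACTN1* were not called. Of the 3 with a TEAD core, *ACTA2*, *ACTN1* and *CALD1*, none was called by edgeR or by DESeq2, and the unadjusted edgeR p of *ACTN1* was 0.0435. Over all tested genes, edgeR called 34.3% in either direction. Groups of 3 genes are too small to be set against that share or against each other.

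**Figure D5:**
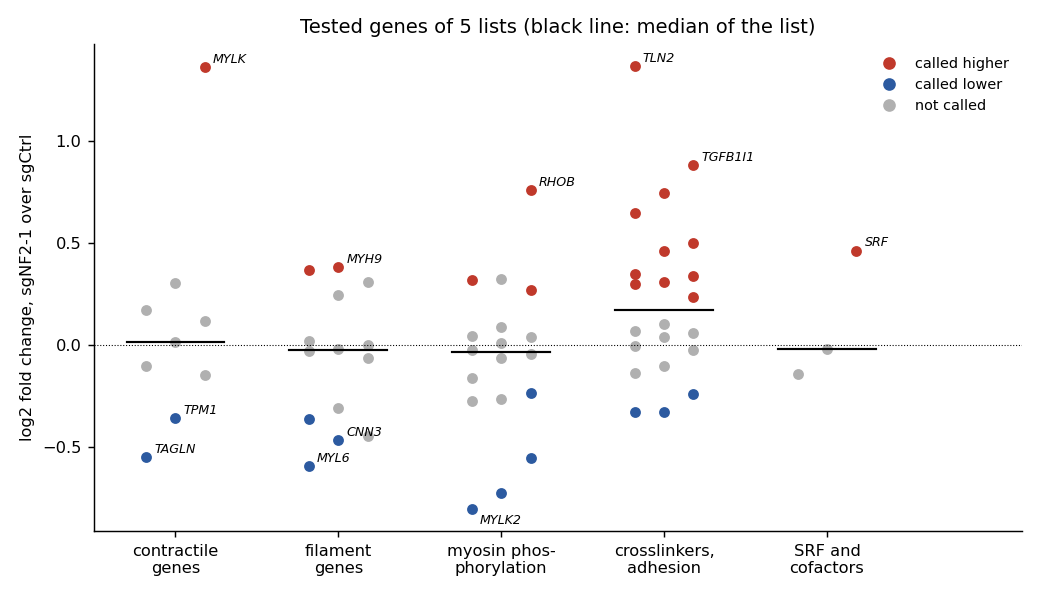
Log2 fold change of sg*NF2*-1 over sgCtrl for each tested gene of the 10 contractile genes and the 4 pathway lists, 1 point per gene, red called higher, blue called lower and grey not called, with the list median as a black line. The medians lie near 0 except for crosslinkers and adhesion, at 0.17.

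Among the genes whose log2 CPM followed *MYLK* most closely over the 6 libraries, of 13136 genes with a mean of at least 1 CPM, were *TRIM25* (Pearson r = 0.9985), *PM20D2* (0.9983) and *PTPRF* (0.9977). All 3 were called higher by edgeR, with log2 fold changes of 0.80, 1.01 and 0.78. The 6 points are 3 libraries of each group, so these values mostly reflect the difference between groups, and they are given as a description.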

How the data were processed

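RNA from H2452 cells was sequenced by the study in paired-end mode, in 3 sgCtrl and 3 sg*NF2*-1 libraries. The deposited tables hold unnormalized read counts and FPKM for each gene, as the authors made them. The submitters' processing notes name HISAT2, StringTie 1.3.3b, featureCounts 1.5.0-p3 and the hg38 build. The strand setting of the counting is not given in the sources used here. The FPKM values equal the deposited count divided by gene length and by a depth of the library, within 0.1% for all genes with at least 100 counts. Groups and replicate numbers come from the sample titles.

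The counts were analysed in R 4.3.3 with edgeR 4.0.16 (filterByExpr with minimum count 10 and minimum total 15, TMM, quasi-likelihood test of the group over 14179 genes, Benjamini-Hochberg adjustment). The study's own methods name DESeq2. FPKM were tested with limma 3.58.1 on log2(FPKM + 1) for genes with a mean of at least 0.5. Single values were compared by an exact two-sided permutation test. The count test was repeated with DESeq2 1.42.0, with its size factors or plain library totals as the scaling, without the filter, with a minimum of 10 counts in each library, with replicate number as a block, without each library in turn, and with calls at an unadjusted p under 0.05 and a fold limit of 0.5 (log2). The FPKM test was repeated with 0.1 added in place of 1, unfiltered, blocked, and without each library. Family shares were recomputed from summed counts. The procedures were tested on simulated counts.

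The 10 genes and the pathway lists were chosen with earlier results of these data known. Named with values are the 10 genes, *NF2*, from each pathway list the called genes with the 3 largest absolute log2 fold changes at a mean of at least 1 CPM, the family genes, *SRF* and its cofactors, list genes at 0 in all libraries, and the 5 genes most like *MYLK*. Some genes that this rule selects are not reported here. The deposited table also let marker genes and overlapping genes be given where they touch a result. Motif windows are from RefSeq (GRCh38.p14) and gene positions from GENCODE 29 (GRCh38), in which all 58735 identifiers were found.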

Additional observations from a re-analysis of the deposited data

How the results depend on the processing

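*MYLK* was called higher, and *TPM1* and *TAGLN* were called lower, under every alternative of the count test that keeps the adjusted threshold, with log2 fold changes of 1.299 to 1.47, -0.39 to -0.32 and -0.65 to -0.49. *NF2* ran from -0.82 to -0.61 when each library was left out. When calls took an unadjusted p under 0.05 and a fold limit of 0.5 (log2), the contractile genes called lower came to 1, the genes called over the whole table to 2839 (1308 higher, 1531 lower) and those of the pathway lists to 9 (5 higher, 4 lower). Leaving out each library gave 1 to 2 contractile genes called higher (*MYL9* joined *MYLK* without sgCtrl replicate 3 or sg*NF2*-1 replicate 1) and 2 to 3 called lower (*TPM2* joined without sg*NF2*-1 replicate 3). Over the whole table the same fits called 2016 to 2514 genes higher and 1880 to 2271 lower. With all libraries these shares were 17.7% and 16.6% of tested genes. In FPKM 1 to 3 contractile genes were called lower, with *TAGLN* lost without sg*NF2*-1 replicate 1 and *TPM2* joining without sg*NF2*-1 replicate 3. With all libraries limma called 28.4% of all genes in either direction. FPKM with no filter on low values left 1 called lower, since *TAGLN* had a limma adjusted p of 0.0501. *ACTA2* changed sign with library totals (-0.015) and when libraries were left out (-0.14 to 0.21), and *CNN2* in FPKM ran from -0.0031 to 0.14. In summed counts in place of summed FPKM, the share difference of *TPM1* among tropomyosins was -2.26 rather than -1.301 points and that of *TPM2* -0.65 rather than -1.46 points. When libraries were left out, the share differences of *TPM2* and *TAGLN* ran from -2.99 to -0.69 and from -0.17 to -0.029 points, highest without sg*NF2*-1 replicate 2 and sg*NF2*-1 replicate 3, and that of *ACTA2* turned sign without sg*NF2*-1 replicate 1 (6.3e-05 points). No scaling moved the median of all genes by more than 0.03.

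Samples with the same replicate number did not clearly deviate together (correlations of -0.032, 0.057 and 0.050, beside -0.107 to 0.060 for unequal numbers). These correlations show no pairing by number but are too few to settle it. With the replicate number as a block, edgeR called 2 contractile genes higher, since *MYL9* reached an adjusted p of 0.040, and 2 lower, and 5199 genes over the whole table.

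*CNN1* and *ACTA2* had at most 10 and 16 counts in a library, which limits what can be said of them. Gene counts do not separate transcript forms, and only 1 guide in 1 cell line was sequenced.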

Other observations

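Some genes outside the contractile set were chosen after their values were seen. *PECAM1*, an adhesion gene best known from endothelium and included as a marker of other cell types, fell from 6.31 ± 0.830 to 1.296 ± 0.337 CPM (SD, n = 3), a log2 fold change of -2.28 (SE 0.26, edgeR adjusted p = 1.7e-07). *CDH5*, the defining endothelial cadherin, was not called, and the leukocyte gene *PTPRC* was at 0 in all libraries. *STAMBPL1*, which overlaps *ACTA2* on the opposite strand, fell from 4.81 ± 0.0704 to 3.15 ± 0.266 CPM (log2 fold change -0.62, edgeR adjusted p = 0.030). It had only 47 to 79 counts and was not called on log2(FPKM + 1) (difference -0.23, limma adjusted p = 0.13).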
